A study of Mus musculus with 9 samples.

Results

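The 6 mouse brain samples taken after intracerebral hemorrhage (ICH), of 9 samples in the series, were divided by a single measured gene, and the remaining genes were described across that division. The division was set by the deposited FPKM (fragments scaled to gene length and library size) of C1qa, a chain of the complement protein C1q. A value of at least 300 FPKM put V2, V3 and La3 in the C1qa-high class, and a value below 300 put V1, La1 and La2 in the C1qa-low class. The working name of this split was strong against weak injury. No lesion volume, behavioral score or hematoma size was used here, so the classes are called by their rule. The C1qa values were 201, 213 and 179 FPKM in V1, La1 and La2 and 448, 398 and 415 FPKM in V2, V3 and La3. The nearest values on either side of the threshold were La1 at 213 and V3 at 398 FPKM. The 3 sham samples had 54.6, 59.7 and 106 FPKM and served as a reference level outside the fit.

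All animals were wild-type mice, and the labels name the tissue brain and basal ganglia. Per the study's methods, they were adult male C57BL mice, and autologous blood was injected into the right basal ganglia. V1, V2 and V3 received ICH and the vehicle of Laminaria and were labelled day 3. La1, La2 and La3 received ICH and a treatment that the labels call Laminaria, with no dose or composition, and were labelled day 4, day 5 and day 6. The study's methods name a CR3 agonist, LA-1 (Leukadherin-1), with its vehicle and do not name Laminaria, so which compound these mice received is not settled here. The labelled days rise by 1 with the sample number in this group alone, and no other source used here states them as sampling times. Sham mice had the needle inserted without blood and were labelled day 3. The labels do not say whether each sample came from its own mouse, so the spread between samples can be technical in part. Both classes hold both treatments, but La3 is the only day 6 sample, so that within the Laminaria group class and labelled day cannot be told apart.

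In the injured brain, C1q binds to damaged cells and opens the classical complement pathway, which runs through C4 and C3 to the receptors on phagocytes. In brain tissue C1q is made mainly by microglia and macrophages. Blood in the parenchyma draws monocytes and neutrophils, which carry their own matrix proteases and cytokines, while astrocytes around the clot become reactive and neurons nearby lose function or die. In such bulk samples, more cells of a type and more RNA per cell cannot be told apart, and neither can fewer cells and less RNA per cell.

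The classes were not separated by sequencing depth. Total counts were between 51307799 (La3) and 74649716 (V2) per sample, and both ends of this range were C1qa-high. Mitochondrial genes took 6.82% to 7.32% of counts in the 6 ICH samples. The striatal genes of the labelled tissue were present in every sample: Ppp1r1b, a phosphatase inhibitor of medium spiny neurons, had 421 CPM or more in all 6. CPM is the count scaled to library size after TMM scaling over all 9 samples. Choroid plexus RNA varied widely, with 70.3 CPM of Ttr in La1 and 4683 CPM in V1, both C1qa-low. V2 had the highest hemoglobin share (0.0142% of counts), and La1 the next (0.00744%). The part of these differences in the results was not tested.

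The comparison covered the 16654 genes whose FPKM averaged 0.5 or more in the 6 samples. A gene was called where the C1qa-high samples differed from the C1qa-low samples by at least 2-fold in the fitted mean (log2 difference of at least 1) and no sample of one class overlapped the other in CPM. By this rule 477 genes (2.86%) were called higher and 82 genes (0.492%) were called lower in the C1qa-high samples. All 3 C1qa-high samples lay above all 3 C1qa-low samples for 2887 genes (17.3%) and below them for 2031 genes (12.2%), whatever the fold. The median log2 difference over all 16654 genes was 0.01. With 1 sample left out, the call rule is easier to meet, since fewer samples have to stay apart. The count called lower then became 149 without V1, 155 without V2, 171 without V3, 131 without La2 and 164 without La3, and the count called higher stayed between 456 and 637. Since every gene comes from the samples that the C1qa value divided, all of these values are a description, and no test was made of them. Differences below are log2 differences of C1qa-high minus C1qa-low with the standard error of the edgeR fit (n = 3 against 3).

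**Figure D1:**
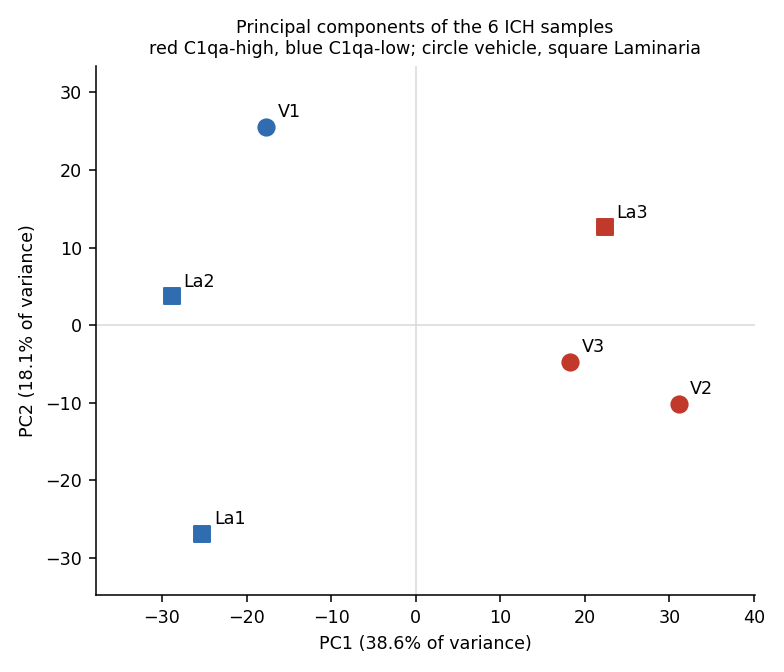
Principal components of log2(CPM + 1) of the 6 ICH samples over the genes compared, without the 3 C1q genes. Each point is a sample, red for C1qa-high, blue for C1qa-low, a circle for vehicle and a square for Laminaria; the axes are component scores in log2 units. V3, La3 and V2 lie at 18.2, 22.4 and 31.1 on the first component, and La2, La1 and V1 at -28.9, -25.2 and -17.7.

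The first principal component, computed without C1qa, C1qb and C1qc, held 38.6% of the variance and placed the classes on opposite sides of 0. The scores were 31.1, 18.2 and 22.4 for V2, V3 and La3 and -17.7, -25.2 and -28.9 for V1, La1 and La2. The second component (18.1%) ran from La1 at -27.0 to V1 at 25.6, which are both C1qa-low. The C1qa-high samples lay between these ends, from -10.2 to 12.6.

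**Figure D2:**
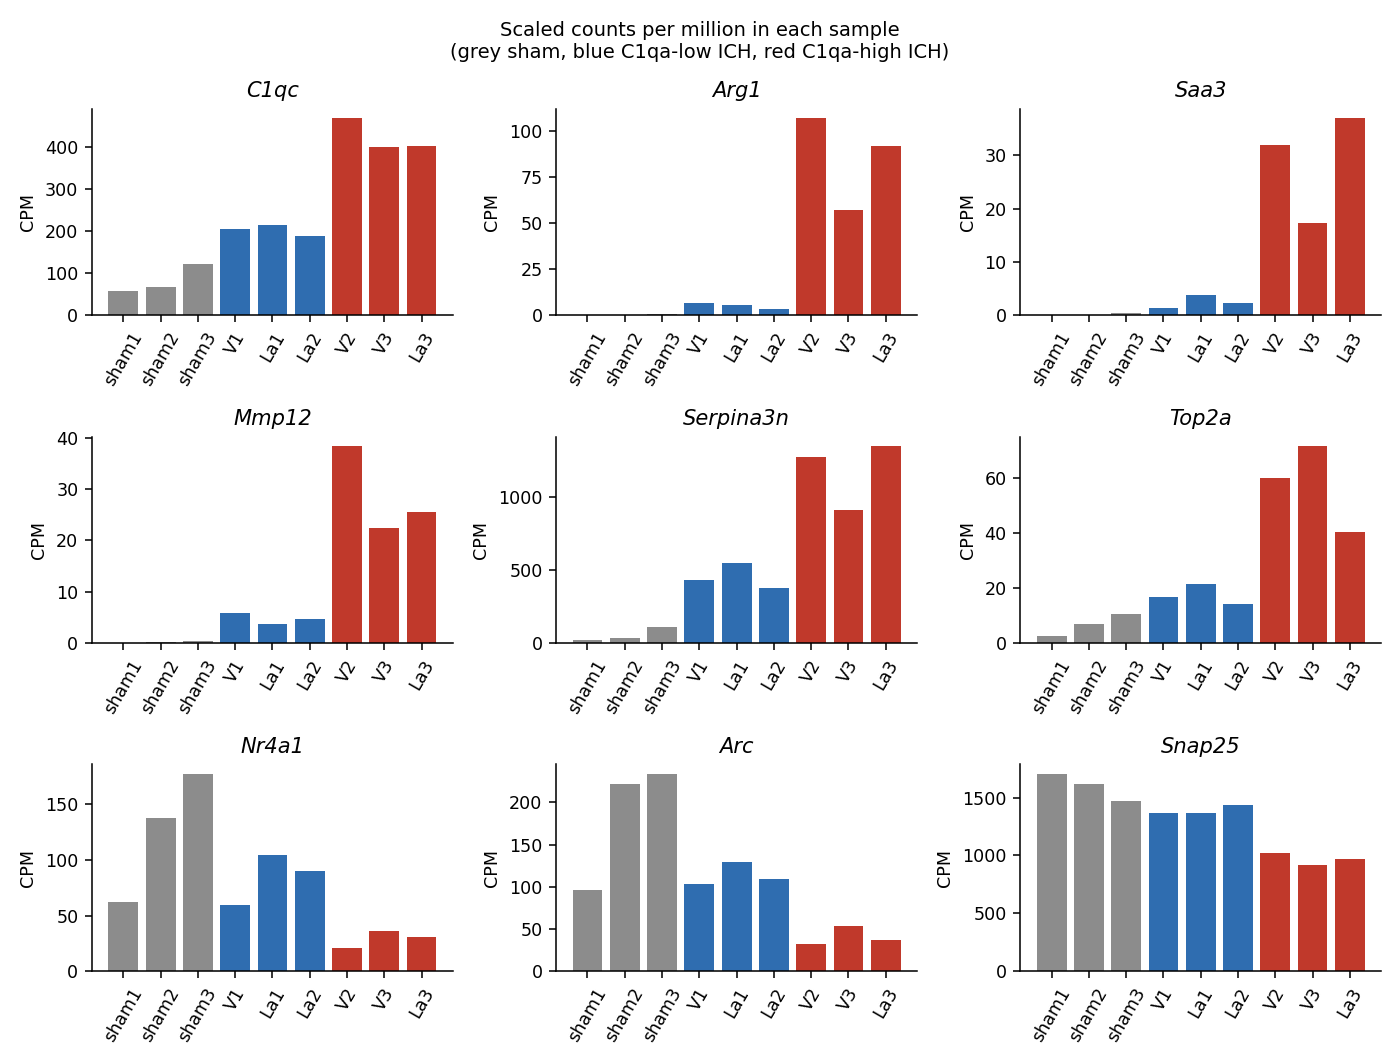
CPM of 9 genes (vertical axis, from 0) in each of the 9 samples (horizontal axis), grey for sham, blue for C1qa-low and red for C1qa-high ICH; each bar is 1 sample. The C1qa-high bars of C1qc, Arg1, Saa3, Mmp12, Serpina3n and Top2a stand above all others, for instance Arg1 at 56.7 CPM or more against 6.47 or less, and those of Nr4a1, Arc and Snap25 stand below all others.

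The 3 chains of C1q, which form a single protein, followed the rule that C1qa set. C1qa had 233, 247 and 211 CPM in V1, La1 and La2 and 528, 462 and 465 in V2, V3 and La3, against 66.9, 72.3 and 129 in the sham samples. C1qb had 204, 228 and 197 CPM in the C1qa-low and 460.2, 406 and 407 in the C1qa-high samples, and C1qc 204, 214 and 188 and 467, 400.2 and 400.5. The log2 differences were 1.08 ± 0.09 (SE), 1.01 ± 0.09 (SE) and 1.06 ± 0.09 (SE). Every ICH sample lay above every sham sample for each chain.

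Without the 3 C1q chains, 17 complement genes were compared, of which 7 were called higher and 0 lower, with a median log2 difference of 0.95. With the chains, which the rule used, the list had 10 of 20 called higher and a median of 1.04. C3, the component on which all complement pathways meet, had 29.6, 34.4 and 18.4 CPM in V1, La1 and La2 and 154, 104 and 112 in V2, V3 and La3, with 2.28, 1.99 and 4.66 in sham. The difference was 2.16 ± 0.26 (SE), or 4.48-fold. C1ra, a protease of the C1 complex, had 3.93, 4.099 and 2.33 CPM in the C1qa-low and 21.9, 7.45 and 20.4 in the C1qa-high samples (2.26 ± 0.44 (SE)). C1s1, the partner protease, differed by 1.84 ± 0.34 (SE), and Cfb, factor B of the alternative pathway, by 1.71 ± 0.43 (SE). In C1ra, C1s1 and Cfb V3 was the lowest of the C1qa-high samples. The receptor genes differed less evenly. C3ar1, the C3a receptor, had 26.2, 31.9 and 22.9 against 66.97, 53.5 and 56.4 CPM (1.13 ± 0.15 (SE)). Itgb2, the beta chain of complement receptor 3, differed by 1.09 ± 0.16 (SE), while Itgam, its alpha chain, had 83.04, 77.8 and 71.4 against 108, 84.2 and 94.03 CPM (0.3 ± 0.11 (SE)) and was not called. C5ar1, the C5a receptor, overlapped between the classes, because V2 had 4.17 CPM and the C1qa-low samples 6.45, 9.99 and 9.01. Cd55, an inhibitor of complement on cell surfaces, overlapped as well (-0.21 ± 0.23 (SE)).

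Genes found across myeloid cells were higher by a little under 2-fold. Of the pan-myeloid list, 13 of 14 genes lay above in all C1qa-high samples and 4 of 14 were called higher, with a median of 0.94. Spi1, which encodes the myeloid transcription factor PU.1, had 14.2, 18.2 and 15.5 CPM in V1, La1 and La2 and 30.9, 31.1 and 27.4 in V2, V3 and La3 (0.9 ± 0.12 (SE)). Lyz2, the lysozyme of phagocytes, had 197, 165 and 101 and 536, 441 and 368 CPM against 7.85, 10.7 and 21.4 in sham, and its difference of 1.54 ± 0.26 (SE) was the largest of the list. Cd68, a lysosomal protein of phagocytes, and Aif1, which encodes IBA1, differed by 1.1 ± 0.14 (SE) and 1.15 ± 0.17 (SE). Lcp1, an actin-bundling protein of leukocytes, was the 1 gene of the list whose classes overlapped.

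Markers of resident microglia were less uniform. Of the 12 homeostatic genes, 2 were called higher, 7 lay above without overlap, and the median was 0.57. Tmem119 had 43.1, 45.6 and 45.2 CPM in the C1qa-low and 73.6, 74.9 and 66.9 in the C1qa-high samples (0.69 ± 0.08 (SE)), and Fcrls 112, 122 and 104 and 310.5, 271 and 195 (1.2 ± 0.17 (SE)). Gpr34 and Selplg differed by 0.95 ± 0.16 (SE) and 0.88 ± 0.23 (SE) without overlap. P2ry12, the purinergic receptor of surveying microglia, overlapped, with 37.6, 30.5 and 21.3 against 20.2, 27.2 and 36.3 CPM. Olfml3 overlapped too, because La1 and La2 had 99.8 and 94.6 CPM and V1 25.5, against 60.2, 48.2 and 44.1 in V2, V3 and La3. Cx3cr1, the fractalkine receptor, met the call rule with 10.6, 12.6 and 7.83 against 25.8, 20.01 and 169 CPM, but its difference of 2.79 ± 0.84 (SE) rested on La3, and it was 1.15 without that sample. The disease-associated list had 3 of 16 genes called higher and a median of 0.72. Spp1, or osteopontin, had 438, 497 and 325 and 1307, 624 and 826 CPM (1.13 ± 0.29 (SE)), Gpnmb 99.4, 129.9 and 63.6 and 259.7, 194 and 165 (1.08 ± 0.28 (SE)), and Trem2, a lipid receptor of microglia, 44.2, 42.5 and 35.4 and 87.9, 89.96 and 72.7 (1.04 ± 0.13 (SE)). Itgax, the integrin alpha X chain, had a difference of like size (1.13 ± 0.53 (SE)), but V1 at 5.42 CPM overlapped La3 at 3.74.

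Genes of infiltrating monocytes and macrophages separated more widely than those of resident microglia in median. Of this list 9 of 15 genes were called higher, and the median of 1.14 was 1.94 without V1. Arg1, the arginase of alternatively activated macrophages, had 6.47, 5.68 and 3.54 CPM in V1, La1 and La2 and 107, 56.7 and 91.4 in V2, V3 and La3, against 0.169, 0.084 and 0.455 in sham. The difference was 4.02 ± 0.33 (SE), a 16.3-fold higher level, and ranged from 3.81 to 4.25 when each ICH sample was left out in turn. Chil3, a chitinase-like macrophage protein, had 2.303, 2.23 and 1.88 and 10.9, 5.28 and 20.6 CPM and no counts in sham (2.52 ± 0.48 (SE)). F13a1, the A chain of factor XIII, had 4.94, 8.11 and 5.32 and 40.3, 20.1 and 35.7 (2.39 ± 0.32 (SE)), and Thbs1, thrombospondin-1, 20.3, 19.7 and 14.4 and 121, 58.9 and 63.9 (2.17 ± 0.31 (SE)). Ccr2, the receptor that guides inflammatory monocytes, had 2.799, 1.09 and 0.908 and 4.19, 6.26 and 9.63 CPM, with La3 highest (2.06 ± 0.52 (SE)). Ly6c2, a surface marker of inflammatory monocytes, overlapped (3.33, 5.495 and 4.21 against 4.27, 5.91 and 8.57), as did Cd163, the hemoglobin scavenger receptor (1.98, 4.62 and 3.98 against 2.84, 3.61 and 6.28).

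Neutrophil genes were low in all samples but mostly separated. Of 14 listed genes 8 passed the filter on mean FPKM, several of them, such as Cxcr2 and Retnlg, only through their C1qa-high values. These had to differ, so the 7 called higher and the median of 2.72 are in part set by the filter. The remaining 6 were below it. Among those 6, Ly6g, Camp, Ngp, Ltf, Mpo and Elane, the summed deposited counts were at most 18 in any class of 3 samples, so the defining granule genes were at or near 0. Cxcr2, the receptor for neutrophil-attracting chemokines, had 0, 0.145 and 0.250 CPM in V1, La1 and La2 and 4.38, 1.56 and 3.94 in V2, V3 and La3. S100a8, a calcium-binding alarmin, had 0.407, 1.16 and 0.344 and 10.2, 1.21 and 4.22 (3.04 ± 0.85 (SE)), where V3 lay just above La1, and its partner S100a9 overlapped (0.567, 2.29 and 1.27 against 21.01, 1.61 and 7.66). Retnlg had 2.14, 0.093 and 0.576 CPM in V2, V3 and La3 and 0.071, 0 and 0 in V1, La1 and La2, so that V3 was close to V1. No fold is given for it, since the C1qa-low class held 4 counts in all. Csf3r, the receptor for granulocyte colony-stimulating factor, which microglia also express, differed by 1.13 ± 0.14 (SE). Of the T, NK and B cell genes 4 were compared and 12 were below the filter. Of these 4, 0 were called and all overlapped. Of all genes, 2.86% were called higher and 0.492% lower, and 17.3% lay above and 12.2% below without overlap. Most genes overlapped as well, so 4 genes do not set lymphocytes apart. The largest differences of the 4 were 0.74 ± 0.49 (SE) for Cd79b, a B cell receptor chain, and -0.6 ± 0.32 (SE) for Cd4, a T helper marker that macrophages can share.

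Receptors for uptake were mostly higher. Of the list, 11 of 12 phagocytic and scavenger receptor genes lay above without overlap and 6 of 12 were called higher (median 1.09). Cd36, a receptor for oxidized lipids, had 6.998, 6.93 and 4.68 CPM in the C1qa-low and 18.7, 17.9 and 13.01 in the C1qa-high samples (1.41 ± 0.22 (SE)). Fcgr2b, the inhibitory Fc receptor, had 28.6, 29.5 and 34.8 and 95.2, 59.97 and 77.04 (1.32 ± 0.18 (SE)), and Msr1 and Stab1, 2 scavenger receptors, differed by 1.27 ± 0.26 (SE) and 1.27 ± 0.16 (SE). Behind them stood the lysosomal list, of which 16 of 17 genes lay above without overlap but only 3 of 17 reached the fold (median 0.69). Cd68, Gusb and Ctss were the called ones. Grn, progranulin, had 162, 167 and 123 against 237, 272 and 315 CPM (0.87 ± 0.15 (SE)). Npc1, a cholesterol transporter of the lysosome, overlapped (118, 129.6 and 117 against 127, 126 and 119 CPM).

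The subunits of the phagocyte NADPH oxidase all lay above, and 3 of 6 were called higher (median 1.01). Ncf1, its p47 organizer, had 31.2, 36.4 and 28.95 and 94.2, 64.2 and 73.6 CPM (1.26 ± 0.16 (SE)). Ncf4 and Rac2 differed by 1.09 ± 0.22 (SE) and 1.03 ± 0.13 (SE), and Cybb, the catalytic subunit, by 0.99 ± 0.23 (SE), which fell just short of the rule.

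Genes for handling heme and iron had no called member, against 2.86% of all genes called higher. Of the 17 compared genes 12 overlapped and 5 lay above without overlap (median 0.26). Of all genes, 17.3% lay above and 12.2% below without overlap, so most genes overlapped as well. Hmox1, the heme oxygenase, had 7.88, 32.1 and 125 CPM in sham, 645, 721 and 521 in V1, La1 and La2 and 1102, 805 and 1043 in V2, V3 and La3. All ICH samples were thus far above sham, while the classes differed by 0.64 ± 0.16 (SE). Hp, haptoglobin, and Cp, ceruloplasmin, differed by 1.22 ± 0.85 (SE) and 0.83 ± 0.30 (SE) with overlap. Hpx, hemopexin, stood at 9.21 CPM in La1 and at 0.743 or less in the remaining 5 ICH samples (-2.43 ± 1.21 (SE), the largest absolute difference of the list). The hemoglobin transcripts overlapped in all 4 compared genes, and their median of 0.69 was -0.38 without V2, 1.08 without V3, 1.29 without La1 and 0.41 without La2. Hbb-bs had 10.3, 26.95 and 9.23 CPM in V1, La1 and La2 and 46.1, 8.08 and 13.1 in V2, V3 and La3, so that V2, La1 and La3 were highest and the classes were mixed.

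In several cytokine genes V2 stood far above the remaining C1qa-high samples. Of the 14 compared interleukin-1, TNF and inflammasome genes 6 were called higher (median 1.0), and of the 15 chemokine genes 6 (median 1.21, 0.58 without V2). Of all genes, 2.86% were called higher. A gene near 0 in the C1qa-low class, such as Il1b, can pass the filter on mean FPKM only through its C1qa-high values. These counts and medians can therefore be in part set by the filter. Il1b had 0.656, 0.762 and 0.376 CPM in V1, La1 and La2 and 26.7, 1.59 and 2.84 in V2, V3 and La3. Its difference of 4.12 ± 1.15 (SE) was 1.89 without V2. Tnf had 11.2, 1.19 and 1.895 CPM in V2, V3 and La3 and overlapped with La1 at 1.36. Cxcl1, which attracts neutrophils, had 62.5 CPM in V2 and 2.21 or less in the remaining 5 ICH samples, and Cxcl2 16.6 in V2 and 0.706 or less elsewhere. Neither was called. Cxcl5, called higher, had 1.205, 0.689 and 1.096 and 29.7, 4.82 and 1.78 (3.6 ± 1.03 (SE), 1.73 without V2). Tlr2 and Tlr4, receptors for bacterial and damage signals, differed by 1.7 ± 0.38 (SE) and 1.55 ± 0.49 (SE). The chemokines with even values were Ccl5, at 0.921, 1.05 and 0.642 against 3.81, 3.16 and 4.68 CPM (2.15 ± 0.28 (SE)), and Ccl6, at 7.92, 10.2 and 6.104 against 29.01, 19.8 and 19.2 (1.49 ± 0.25 (SE)).

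V2 also stood apart in interferon-induced genes. Of 16 genes 1 was called higher (Mx1), 11 overlapped, and the median of 0.85 was 0.36 without V2. Of all genes, 2.86% were called higher, and 17.3% lay above and 12.2% below without overlap, so most genes overlapped as well. Cxcl10 had 18.4, 9.304 and 7.84 CPM in V1, La1 and La2 and 192, 13.8 and 9.66 in V2, V3 and La3. Ifi44, Mx1 and Ifit1 differed by 1.52 ± 0.61 (SE), 1.34 ± 0.51 (SE) and 1.2 ± 0.52 (SE), and V2 was highest in each. Antigen presentation genes had medians of 0.62 for class I and 1.01 for class II, the latter between 0.77 and 1.40 with each sample left out. Without overlap, 7 of 10 class I and 3 of 7 class II genes lay above, against 17.3% of all genes. In each list 1 gene was called higher, against 2.86% of all genes. H2-K1, a class I heavy chain, was the 1 of 10 class I genes called, at 66.3, 41.6 and 46.5 against 133, 87.9 and 100.4 CPM (1.05 ± 0.22 (SE)), and B2m, its light chain, had 215, 186 and 205 against 328, 324 and 330.0 (0.7 ± 0.07 (SE)). Cd74, the class II invariant chain, was the 1 of 7 class II genes called (32.95, 16.99 and 9.83 against 62.6, 81.6 and 36.2 CPM, 1.6 ± 0.48 (SE)), while H2-Aa, H2-Ab1 and H2-Eb1 overlapped, with V1 above La3 in each.

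Promoters were searched because PU.1, whose own gene Spi1 followed the classes, binds to sites with a GAGGAA core in myeloid genes. Those of C1qb, C1qc and 4 named genes called higher are shown as examples that hold the letters. Windows of 250 bases before to 50 after the start site were taken from RefSeq (GRCm38.p6), in which 330 of the 477 genes called higher and 34 of the 82 called lower had an entry. Letters were searched on both strands. The core GAGGAA was found in 38.2% of the 387 promoters of genes called higher, in 31.2% of the 48 promoters of genes called lower, and in 28.3% of all 32851 promoters. The longer GAGGAAGT, which contains the core, was found in 8.27%, 6.25% and 3.2%, and GAAANNGAA, the first letters of the interferon-stimulated element, in 13.4%, 10.4% and 8.56%. Among the 14603 promoters of genes compared, the shares were 26.7%, 2.89% and 6.95% in the same order of runs. For the genes called lower, the shares rest on 15, 3 and 5 promoters. Promoters and not genes were counted, and overlapping windows of Egr2 over the same site are among the 15. A match is a description of letters and not a bound site. Below, capitals mark any of these runs on either strand. Of the 15 named genes called higher, 11 had a promoter that was searched for this count. Arg1, Cxcl5, Pcdhga2 and Pcdhga9 were not in it, and whether their promoters hold a run is not reported here. Among the 11, 5 held any of these runs: Mmp12 (in 1 of 2 promoters), Pf4 and S100a8 the 8-letter run, F7 the core alone and Saa3 the interferon element. The other 6, Orm2, Mmp3, Il1b, Cx3cr1, Slpi and Steap4, held none. Of the 15 named genes called lower 11 had a promoter and 3 held a run, Egr2, Egr4 and Iqschfp. C1qc has the 8-letter run and C1qb the core alone.
C1qb (chr4:136886151-136886450, minus strand): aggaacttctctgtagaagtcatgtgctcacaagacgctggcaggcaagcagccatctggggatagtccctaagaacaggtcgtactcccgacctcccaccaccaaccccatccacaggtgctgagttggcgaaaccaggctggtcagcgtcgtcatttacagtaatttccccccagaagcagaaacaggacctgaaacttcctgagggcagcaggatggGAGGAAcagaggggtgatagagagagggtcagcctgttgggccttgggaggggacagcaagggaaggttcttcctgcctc
C1qc (chr4:136892865-136893164, minus strand): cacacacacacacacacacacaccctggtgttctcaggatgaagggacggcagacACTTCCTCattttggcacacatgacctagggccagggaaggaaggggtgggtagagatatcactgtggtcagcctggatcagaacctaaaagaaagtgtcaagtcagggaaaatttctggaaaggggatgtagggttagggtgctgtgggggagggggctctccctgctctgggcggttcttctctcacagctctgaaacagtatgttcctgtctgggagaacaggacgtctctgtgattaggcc
Pf4 (chr5:90772185-90772484, plus strand): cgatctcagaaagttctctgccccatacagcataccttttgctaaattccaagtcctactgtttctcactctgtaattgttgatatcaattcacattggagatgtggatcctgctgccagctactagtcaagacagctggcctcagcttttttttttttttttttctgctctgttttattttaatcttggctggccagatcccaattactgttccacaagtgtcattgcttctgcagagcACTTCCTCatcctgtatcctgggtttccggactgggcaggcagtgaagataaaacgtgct
S100a8 (chr3:90668821-90669120, plus strand): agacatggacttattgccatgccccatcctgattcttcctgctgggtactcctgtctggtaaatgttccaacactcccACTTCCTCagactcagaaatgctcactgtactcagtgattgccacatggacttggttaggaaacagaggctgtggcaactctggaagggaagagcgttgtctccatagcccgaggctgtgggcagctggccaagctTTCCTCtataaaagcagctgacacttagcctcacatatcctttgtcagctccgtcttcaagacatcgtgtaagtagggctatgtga
Mmp12 (chr9:7344147-7344446, plus strand): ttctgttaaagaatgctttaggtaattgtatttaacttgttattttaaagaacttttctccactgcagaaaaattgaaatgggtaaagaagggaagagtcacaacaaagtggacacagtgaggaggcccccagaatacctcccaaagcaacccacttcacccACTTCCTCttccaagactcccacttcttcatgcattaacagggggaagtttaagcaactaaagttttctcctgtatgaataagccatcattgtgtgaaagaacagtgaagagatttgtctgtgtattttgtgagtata
Saa3 (chr7:46715627-46715926, minus strand): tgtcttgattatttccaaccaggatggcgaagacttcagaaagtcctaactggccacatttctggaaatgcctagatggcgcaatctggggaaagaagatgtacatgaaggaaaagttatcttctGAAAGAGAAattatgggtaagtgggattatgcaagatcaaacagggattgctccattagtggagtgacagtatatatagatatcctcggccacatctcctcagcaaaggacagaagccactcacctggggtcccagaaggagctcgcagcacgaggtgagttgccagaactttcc

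Among genes averaging 1 FPKM or more, the 15 with the largest differences were Orm2, Mmp3, Il1b, Arg1, Pcdhga2, Cxcl5, Pcdhga9, Saa3, Pf4, S100a8, Steap4, Cx3cr1, F7, Mmp12 and Slpi. That average takes in both classes, so a gene below 1 FPKM in the C1qa-low class can pass only through its C1qa-high values. Such genes had to differ, and their differences are in part set by the filter. Orm2 is among them, and so, by mean FPKM and fold, are Saa3, Mmp12 and F7. Orm2, an acute-phase glycoprotein, had no counts in V1, La1, La2 or sham and 3.94, 1.41 and 2.99 CPM in V2, V3 and La3. Against a floor of 12 counts over the C1qa-low class, set high because small deposited counts recur at 4 more than at 5, its mean was at least 40.7-fold higher. Saa3, an acute-phase apolipoprotein made by macrophages among other cells, had 1.35, 3.77 and 2.32 and 31.9, 17.3 and 36.96 CPM (3.53 ± 0.45 (SE)). Mmp12, the macrophage elastase, had 5.94, 3.81 and 4.62 and 38.3, 22.5 and 25.5 (2.59 ± 0.26 (SE)), and Pf4, platelet factor 4, 1.15, 2.18 and 0.360 and 12.5, 10.1 and 8.64 (3.09 ± 0.58 (SE)). F7, coagulation factor VII, had 0.957, 0.871 and 0.720 and 7.07, 4.63 and 3.79 (2.6 ± 0.30 (SE)). In these 5 genes the lowest C1qa-high sample was more than 3-fold above the highest C1qa-low sample. The promoters of Saa3, Mmp12 and Pf4 are among those printed above.

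In most of the other genes the C1qa-high samples were uneven, Arg1 being an exception. Mmp3, stromelysin-1, had 0.532, 0 and 0.250 and 37.8, 1.49 and 14.03 CPM (6.08 ± 1.42 (SE), 4.88 without V2), with V3 nearest to the C1qa-low samples. Steap4, a metalloreductase of reactive astrocytes, had 7.69, 7.15 and 4.63 and 99.3, 18.4 and 18.9 (2.81 ± 0.72 (SE), 1.52 without V2), and Slpi, a protease inhibitor, 0.904, 0.399 and 0.454 and 7.21, 1.07 and 2.03 (2.55 ± 0.76 (SE), 1.40 without V2). S100a8 differed by 2.09 without V2 as well. Pcdhga2 and Pcdhga9, which share exons in the gamma protocadherin cluster, were far higher in 1 sample each. Pcdhga2 had 483 CPM in La3 and 26.03 or less in the remaining 5, and Pcdhga9 628 CPM in V2 and 37.01 or less. Their differences of 3.88 ± 1.28 (SE) and 3.57 ± 1.22 (SE) were 1.07 without La3 and 0.78 without V2. The sources used here do not say how reads of shared exons were divided, so both values are uncertain. Of the 477 genes called higher, 22 had 1 C1qa-high sample more than 3 times the next, and V2 was highest in 269, V3 in 118 and La3 in 90.

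Proliferation genes were higher throughout. All 15 cell cycle genes lay above without overlap and 12 of 15 were called higher (median 1.5, 1.42 to 1.64 with each sample left out). Rrm2, the small subunit of ribonucleotide reductase, had 10.1, 11.6 and 9.09 CPM in V1, La1 and La2 and 43.3, 42.2 and 27.6 in V2, V3 and La3 (1.88 ± 0.20 (SE)). Top2a, a topoisomerase of dividing cells, had 16.7, 21.4 and 14.4 and 59.9, 71.5 and 40.3 (1.71 ± 0.24 (SE)), and Aurkb and Ccnb1, 2 mitotic regulators, differed by 1.73 ± 0.21 (SE) and 1.71 ± 0.32 (SE). Mki67, a general marker of cycling cells, had 1.995, 3.92 and 6.93 CPM in sham, 11.6, 15.4 and 11.4 in the C1qa-low and 34.2, 34.5 and 31.6 in the C1qa-high samples (1.38 ± 0.14 (SE)). La3 was the lowest C1qa-high sample for Rrm2, Top2a and Ccnb1. Pcna, Mcm5 and Mcm6, which load or run the replication fork, were higher by under 2-fold.

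Reactive astrocyte genes separated, and resting astrocyte genes did so only slightly. In counts, 10 of 18 reactive genes were called higher (median 1.10) against 0 of 12 resting genes (median 0.21). Gfap, the astrocyte intermediate filament, had 324, 446 and 933 CPM in sham, 1951, 2274 and 1678 in V1, La1 and La2 and 4359, 4219.9 and 3942 in V2, V3 and La3 (1.08 ± 0.12 (SE)). Vim, vimentin, had 283, 279.6 and 179.6 and 637, 787 and 657 (1.49 ± 0.19 (SE)), and Serpina3n, a serine protease inhibitor, 434, 548 and 378 and 1269, 910.3 and 1344 (1.37 ± 0.19 (SE)). Ptx3, a pentraxin, was called with 5.28, 6.29 and 3.94 against 53.5, 6.35 and 7.66 CPM (2.12 ± 0.84 (SE)), with V3 just above La1 and V2 far above all. Lcn2, lipocalin-2, overlapped, with 160.1 CPM in La1 and 136 in V3. Aqp4 and Aldh1l1, 2 general astrocyte genes, were higher by 0.75 ± 0.13 (SE) and 0.61 ± 0.06 (SE). Slc1a2, the main glutamate transporter, had 1511, 1900.3 and 1439 against 1458, 1566 and 1462 CPM (-0.11 ± 0.11 (SE)), and Fgfr3 differed by -0.09 ± 0.17 (SE).

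Matrix and coagulation genes were higher in part. In counts, 5 of 15 matrix genes (median 0.91) and 4 of 13 coagulation genes (median 0.80) were called. Col3a1, a fibrillar collagen, had 8.56, 5.296 and 8.76 and 18.9, 20.4 and 24.5 CPM (1.49 ± 0.22 (SE)), and Timp1, an inhibitor of metalloproteinases, 27.00, 21.8 and 14.6 and 54.9, 43.2 and 51.4 (1.24 ± 0.23 (SE)). Fn1, fibronectin, and Dcn, decorin, both differed by 1.05 with standard errors of 0.25 and 0.26. Anxa2, a plasminogen receptor, had 55.9, 57.3 and 48.6 and 143, 125 and 126 (1.28 ± 0.10 (SE)). F10, factor X, which macrophages can make, had 1.79, 1.31 and 0.876 and 7.11, 5.16 and 3.72 (2.01 ± 0.36 (SE)). F2r, the thrombin receptor PAR1, was the 1 coagulation gene that lay below without overlap (-0.3 ± 0.11 (SE)). None of the 13 endothelial genes (median 0.41) and none of the 9 pericyte and smooth muscle genes (median 0.25) was called. Without overlap, 8 of the 13 and 4 of the 9 lay above, against 17.3% of all genes. Cdh5 and Vwf, 2 endothelial genes, were higher by 0.73 ± 0.13 (SE) and 0.71 ± 0.14 (SE), and Pdgfrb, a pericyte receptor, overlapped (0.15 ± 0.15 (SE)).

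**Figure D3:**
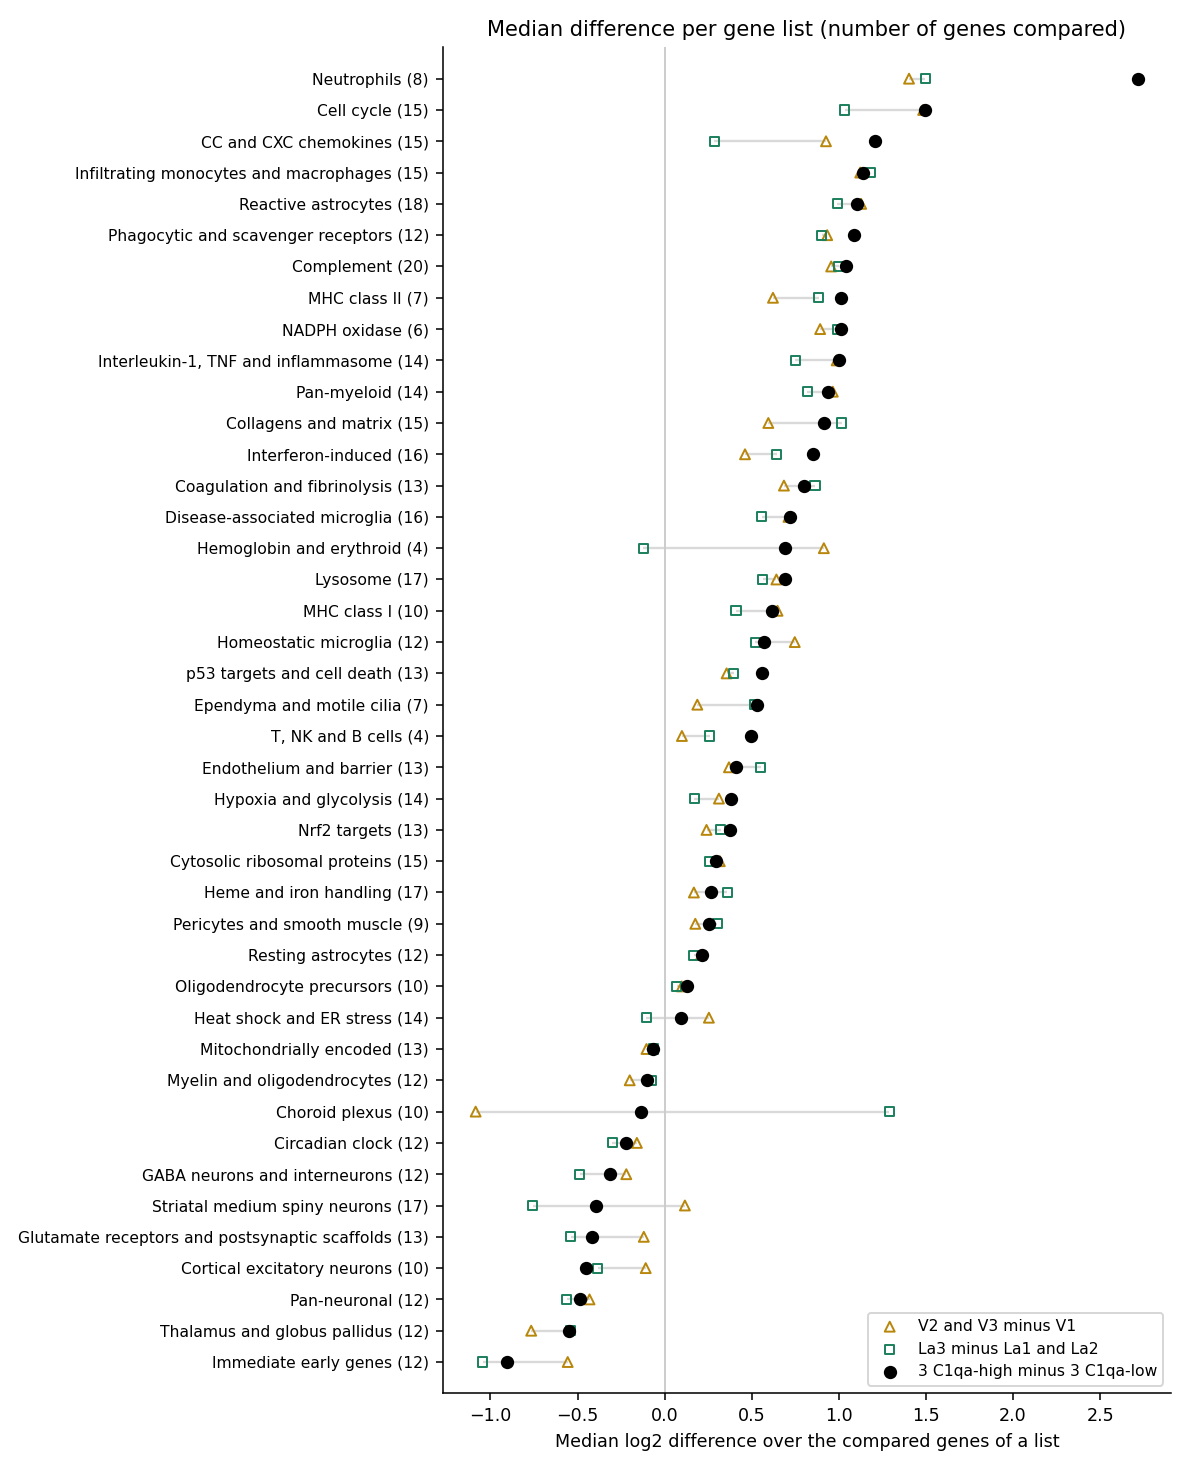
Median log2 difference of each of the 42 gene lists (horizontal axis, number of genes compared in brackets). Black points are the 3 C1qa-high minus the 3 C1qa-low samples from the fit; triangles (V2 and V3 minus V1) and squares (La3 minus La1 and La2) are differences of mean log2(CPM + 1) inside 1 treatment, a scale that draws low genes such as those of neutrophils toward 0. Neutrophil, cell cycle and chemokine genes are at the top, immediate early genes at the bottom (-0.90), and choroid plexus is the list whose triangle and square are farthest apart.

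Immediate early genes had more genes called lower than any other of the 42 lists. Of 12 genes 6 were called lower, 0 higher, and the median was -0.90. Nr4a1, an orphan nuclear receptor, had 59.4, 105 and 89.7 CPM in V1, La1 and La2 and 21.00, 36.02 and 30.4 in V2, V3 and La3, against 62.05, 137 and 177 in sham (-1.54 ± 0.27 (SE)). Arc, a regulator of AMPA receptor traffic, had 103, 129 and 109 and 31.7, 53.02 and 37.1, against 96.05, 221 and 233 in sham (-1.48 ± 0.20 (SE)). The C1qa-low samples lay within or near the sham range and the C1qa-high samples below it for both. Npas4, a factor induced by neuronal activity, had 20.3, 23.00 and 20.6 and 6.11, 6.29 and 8.33 (-1.63 ± 0.16 (SE)). Egr2 and Egr4, zinc finger factors of the same response, differed by -1.53 ± 0.37 (SE) and -1.49 ± 0.24 (SE), and Egr1 had 187, 292 and 265 and 98.1, 139.8 and 102 CPM (-1.13 ± 0.20 (SE)). The remaining members were less uniform. Fos differed by -0.56 ± 0.19 (SE), Junb overlapped (-0.12 ± 0.21 (SE)), and Jun lay above without overlap (0.41 ± 0.13 (SE)).

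Neuronal genes were lower by a smaller and more even amount. None of the 12 pan-neuronal genes reached 2-fold, yet 11 of 12 lay below without overlap, against 12.2% of all genes (median -0.48). Snap25, a synaptic SNARE protein, had 1701, 1615 and 1468 CPM in sham, 1364, 1366 and 1438 in V1, La1 and La2 and 1017, 921 and 973 in V2, V3 and La3 (-0.52 ± 0.07 (SE)). Nefm, Nefh and Nefl, the 3 neurofilament chains, differed by -0.66 ± 0.11 (SE), -0.65 ± 0.09 (SE) and -0.58 ± 0.09 (SE), and Map2, a dendritic protein, by -0.58 ± 0.11 (SE). Stmn2 was the gene that overlapped. The glutamate receptor and scaffold genes had a median of -0.42 and the GABA neuron genes of -0.31, with 7 below without overlap in each and 0 called. Gabrb2, a GABA-A receptor subunit, came nearest to the rule at 33.4, 43.1 and 36.1 against 20.8, 16.9 and 19.7 CPM (-0.97 ± 0.13 (SE)), and Grin2b, an NMDA receptor subunit, had a difference of -0.71 ± 0.28 (SE) with overlap.

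Genes of regional neuron types were less uniform. Of the 17 genes of striatal medium spiny neurons 0 were called and 16 overlapped (median -0.39, -0.65 without V3 and -0.26 without La1). Rgs9, a G protein regulator of the striatum, had 197, 349.8 and 272 CPM in V1, La1 and La2 and 114, 230.3 and 124 in V2, V3 and La3 (-0.81 ± 0.32 (SE)). In this list V3 was above V1 for most genes, and the median was 0.12 inside the vehicle group and -0.76 inside the Laminaria group. Ppp1r1b, which encodes DARPP-32, was the 1 gene of the list with no overlap (889.5, 966 and 672 against 421, 652 and 527 CPM, -0.66 ± 0.19 (SE)). Drd1 and Drd2, the dopamine receptors of the direct and indirect pathway, differed by -0.52 ± 0.30 (SE) and -0.27 ± 0.20 (SE). Genes of the thalamus and globus pallidus were lower in both treatments (median -0.55, with -0.77 and -0.54 inside the vehicle and Laminaria groups). Prkcd, a protein kinase C of thalamic neurons, had 408, 385 and 368 CPM in sham, 302, 296 and 289 in the C1qa-low and 199, 157 and 152 in the C1qa-high samples (-0.8 ± 0.11 (SE)). Ramp3 and Gbx2 differed by -0.86 ± 0.16 (SE) and -0.9 ± 0.30 (SE), and Synpo2, an actin-binding protein, was called lower (25.7, 26.6 and 61.4 against 7.87, 15.2 and 15.9, -1.55 ± 0.42 (SE), -1.01 without La2). Cortical excitatory genes had a median of -0.45, with 3 of 10 below without overlap.

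Oligodendrocyte genes barely differed. The myelin list had a median of -0.10 and the precursor list of 0.13, with 0 called in either. Mbp, myelin basic protein, had 1175, 1069 and 1097 CPM in V1, La1 and La2 and 1211, 1107 and 1184 in V2, V3 and La3 (0.07 ± 0.07 (SE)). Opalin, a myelin membrane protein, had the largest difference of the myelin list (-0.48 ± 0.20 (SE), with overlap). Genes for oxygen and stress responses differed by list. The hypoxia and glycolysis list had 2 of 14 called higher (median 0.38, 0.21 without V1), Egln3 at 1.48 ± 0.20 (SE) and Hk2, a hexokinase, at 1.2 ± 0.12 (SE), while Vegfa lay below without overlap (-0.28 ± 0.11 (SE)). Of 13 p53 target and cell death genes 8 lay above without overlap (median 0.56) and 2 were called higher, Ripk3 and Casp8, which act in necroptosis and apoptosis (1.17 ± 0.29 (SE) and 1.09 ± 0.13 (SE)). Of 13 Nrf2 targets 8 lay above without overlap (median 0.38). The medians were 0.09 for heat shock and ER stress, -0.22 for the circadian clock and -0.07 for the mitochondrially encoded genes, with 0 called in these or among Nrf2 targets. All 15 cytosolic ribosomal protein genes lay above without overlap, by 0.21 to 0.55 log2 units. Ependymal genes had 0 called and a median of 0.53, which was 0.18 without V3. All 10 choroid plexus genes overlapped, and their median of -0.14 was 0.79 without V1, 0.17 without V2, -0.29 without V3 and -0.61 without La1.

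The genes called lower with the largest differences were Pnma2, Iqschfp, Col25a1, Gpr176, Epo, Npas4, Mir7001, Synpo2, Nr4a1, Egr2, Scd2, Mgll, Egr4, Atp6v1g2 and Arc. Here too the genes averaged 1 FPKM or more, so a gene below that in the C1qa-high class can pass only through its C1qa-low values. By mean FPKM and fold, Pnma2, Iqschfp, Epo and Mir7001 are among such genes. They had to differ, and their differences are in part set by the filter. Mgll, the monoacylglycerol lipase that breaks down an endocannabinoid, had 79.7, 118 and 141 CPM in V1, La1 and La2, 34.1, 48.5 and 35.3 in V2, V3 and La3 and 37.2, 53.8 and 43.8 in sham (-1.52 ± 0.24 (SE)). Here the C1qa-low samples were above sham and the C1qa-high samples within or near it. Pnma2 had 46.2, 49.04 and 56.9 CPM in V1, La1 and La2 and 5.09, 5.26 and 5.85 in V2, V3 and La3 (-3.23 ± 0.12 (SE)), and the sham samples had 7.15, 6.33 and 38.1. Sham 1 and 2 were thus near the C1qa-high level and sham 3 near the C1qa-low level. Col25a1, a membrane collagen of neurons, had 70.99, 61.1 and 17.1 and 13.8, 12.9 and 11.3 CPM, with sham at 13.6, 15.4 and 68.3 (-1.97 ± 0.48 (SE)). Here V1, La1 and the third sham sample were high, and La2 was nearer to the C1qa-high samples.

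Several of these rested on 1 sample or on few fragments. Scd2, a desaturase of fatty acid synthesis, had 2403 CPM in La2 and between 348 and 422 in the remaining 5, and its difference of -1.53 ± 0.69 (SE) was -0.17 without La2. Atp6v1g2, a proton pump subunit, had 373, 154 and 189 and 83.9, 82.1 and 89.6, with V1 far above La1 and La2 (-1.49 ± 0.32 (SE), -1.01 without V1). Gpr176 had 13.8, 13.1 and 14.7 and 8.29, 0.604 and 2.47 (-1.87 ± 0.79 (SE), -3.19 without V2), with V2 nearest to the C1qa-low samples. Iqschfp had 8.699, 6.46 and 5.400 and 4.82, 0 and 0 CPM. Its difference of -2.07 ± 1.62 (SE) was -11.65 without V2, where the C1qa-high class held no counts and the value depends on the prior count. Epo, erythropoietin, had 2.32, 1.85 and 2.61 and 0.214, 0 and 1.84 (-1.75 ± 1.22 (SE), -1.16 without V3 and -4.33 without La3). Mir7001 was at or below 0.248 CPM in all 6. The cause of these jumps was not tested.

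**Figure D4:**
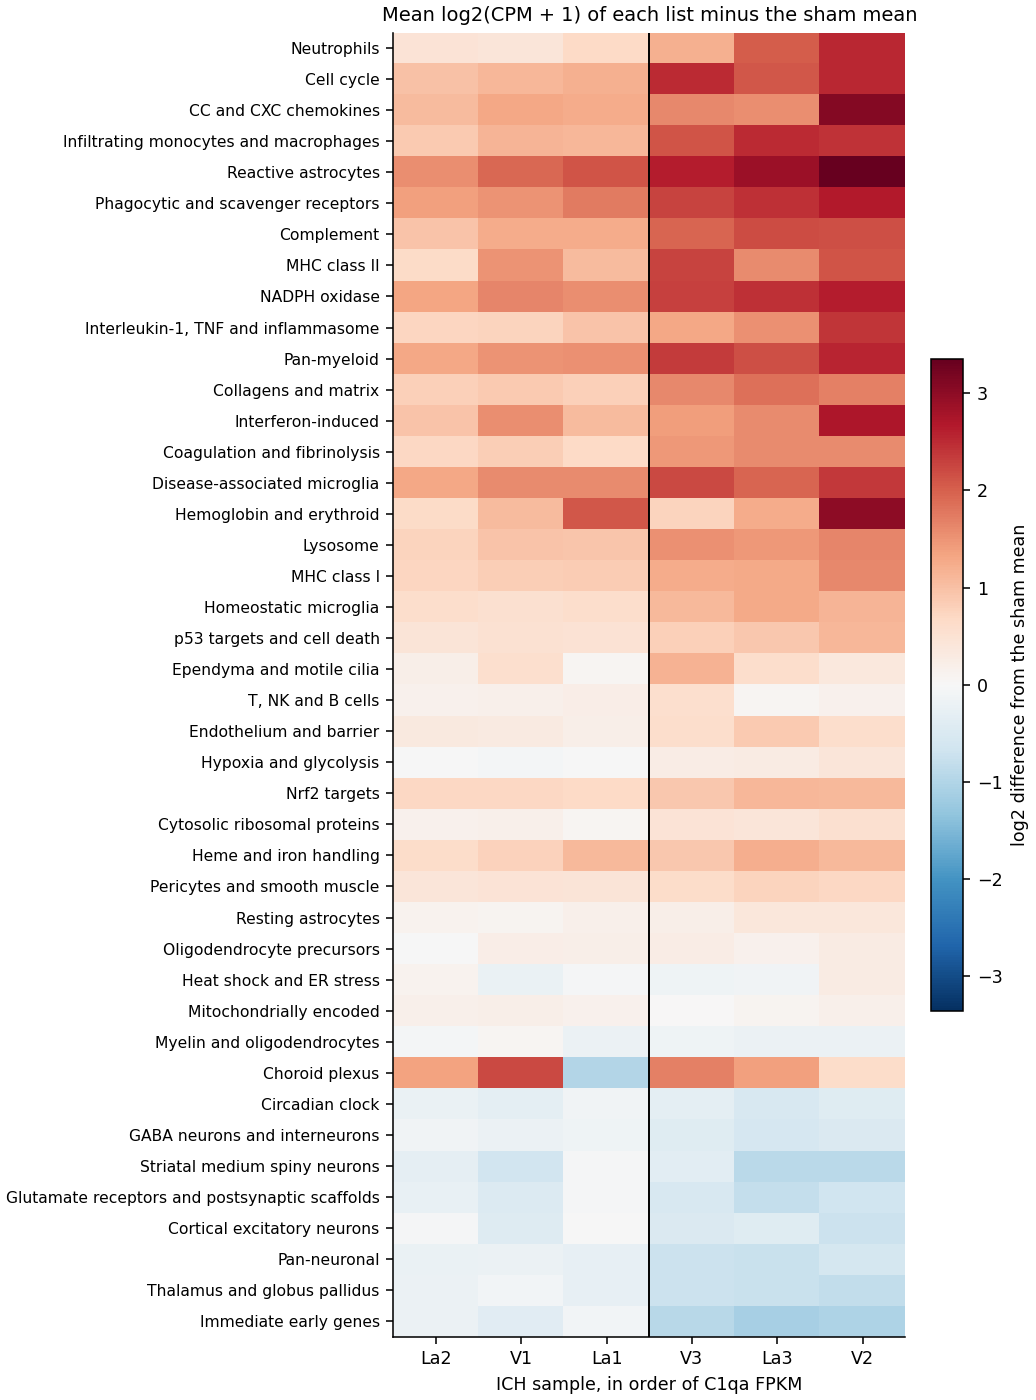
Mean log2(CPM + 1) of each of 42 gene lists (rows) in each ICH sample (columns, in order of C1qa FPKM) minus the mean of the 3 sham samples, as colour from blue (below sham) to red (above sham). The line divides the C1qa-low from the C1qa-high samples. Rows run in order of the list median. Myeloid, cell cycle and reactive astrocyte rows are darker red on the right, the neuronal rows at the bottom are bluer on the right, and the choroid plexus row is blue in La1 and red in the remaining samples.

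The C1qa-low samples lay between sham and the C1qa-high samples for most genes called higher. Of the 477, 299 had all C1qa-low samples above all sham samples, 167 overlapped with sham, and 11 had all C1qa-low samples below sham. The median log2 difference from sham of these genes was 0.76 in the C1qa-low and 1.95 in the C1qa-high samples, on means of CPM with 1 added. The genes called lower had another pattern. Of the 82, 2 had all C1qa-low samples below all sham samples, 68 overlapped with sham and 12 had them above it. Their median difference from sham was 0.06 in the C1qa-low and -0.69 in the C1qa-high samples. The genes were chosen on the C1qa-low and C1qa-high values, so these medians describe the chosen genes.

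Across the mean scores of the 42 lists, 24 had all C1qa-high samples above, 5 had them below, and 13 overlapped. The complement list, which holds the C1qa of the rule, is among the 24. The 5 lists below were immediate early, pan-neuronal, glutamate receptor, GABA neuron and thalamic genes.

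**Figure D5:**
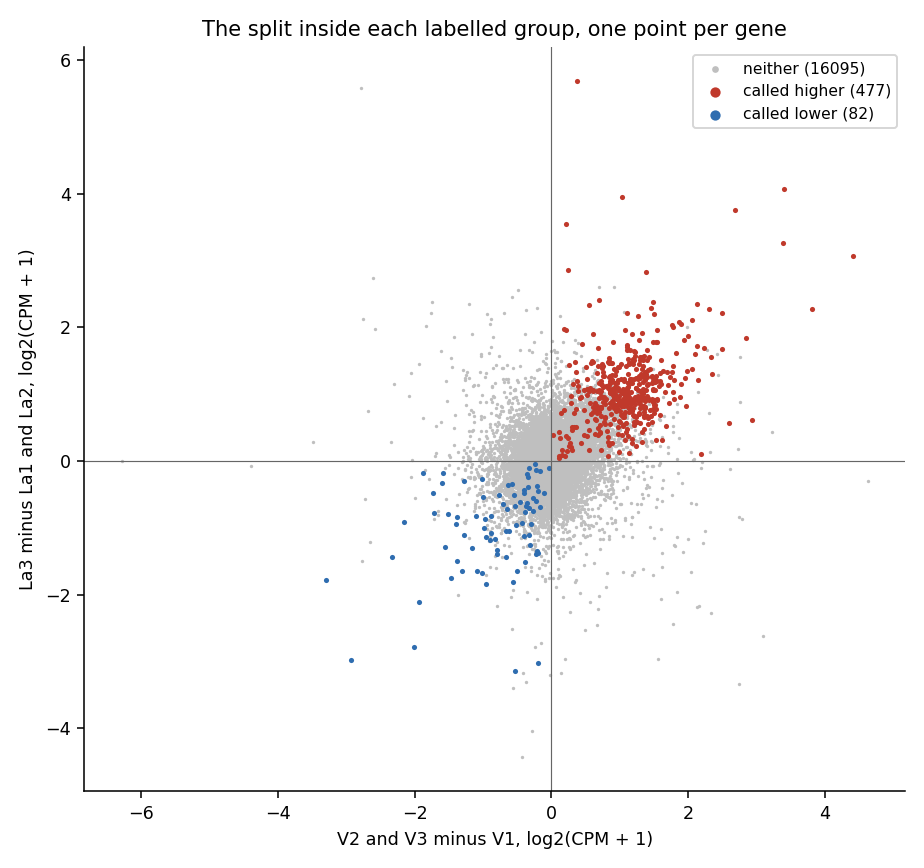
Difference inside the vehicle group (horizontal, V2 and V3 minus V1) and inside the Laminaria group (vertical, La3 minus La1 and La2), in log2(CPM + 1), with 1 point for each of 16654 genes. Red points are the 477 genes called higher and blue points the 82 called lower, which the call rule places in the upper right and lower left. Grey points are the remaining genes, spread around 0 in all directions.

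The split was then followed inside each labelled group, where the differences share no sample. Across the 16654 genes, V2 and V3 minus V1 and La3 minus La1 and La2 had a Pearson correlation of 0.32 and a Spearman correlation of 0.35. This is a description across genes, which are not independent replicates. The median had the same sign in both groups for 38 of the 42 lists. The complement list, C1q chains included, had medians of 0.96 in the vehicle and 1.0 in the Laminaria group on log2(CPM + 1), and cell cycle genes 1.48 and 1.03. Since C1qa set the classes, the complement medians, and the place of that list among the 38, are in part fixed by the rule. Microglia and macrophages are the main source of C1q, and both differences were ordered by C1qa. The medians of their lists are therefore not independent of the rule either. Immediate early genes had -0.56 and -1.04, and pan-neuronal genes -0.43 and -0.56. The lists whose medians had opposite signs were choroid plexus (-1.08 and 1.29), hemoglobin (0.91 and -0.12), striatal neurons (0.12 and -0.76) and heat shock (0.25 and -0.11).

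The labelled contrast of the same 6 samples, Laminaria against vehicle, was tested in edgeR by quasi-likelihood, with p-values adjusted after Benjamini and Hochberg. Of the 16654 genes, 3 (0.018%) had an adjusted p under 0.05, and 554 had an unadjusted p under 0.05. Zfp180, a zinc finger gene, had 6.87, 6.97 and 6.69 CPM in V1, V2 and V3 and 68.6, 63.3 and 41.2 in La1, La2 and La3 (3.08 ± 0.21 (SE) log2 units, adjusted p = 0.0451). Pde6d, which carries prenylated proteins, had 48.7, 50.6 and 49.5 CPM against 16.4, 19.5 and 15.9 (-1.52 ± 0.12 (SE), adjusted p = 0.0451), and Aurkaip1, a mitochondrial ribosome protein, differed by -1.2 ± 0.10 (SE, adjusted p = 0.0468). None of the 3 was among the 559 genes called by the C1qa split, and the smallest adjusted p of those 559 in the labelled contrast was 0.951. The call rule gives every called gene high and low values in both treatments. This outcome was therefore largely set in advance and says nothing on treatment. With 1 sample left out, 1 gene passed without La3 and 0 without each of the other 5. Treatment and labelled day cannot be told apart in this contrast.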

How the data were processed

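RNA from wild-type mouse basal ganglia was sequenced in 3 sham, 3 ICH vehicle and 3 ICH Laminaria samples. The deposited table gives counts and FPKM values per gene for the 9 samples. The submitters' processing notes name StringTie 1.3.4, HISAT2 2.0.4, FastQC 0.10.1 and cutadapt 1.9, and a rat build, whereas gene identifiers and coordinates in the table are those of mouse GRCm38. The sources used here give neither the role of each tool nor the counting settings. FPKM values were deposited by the authors and are relative to gene length and library size. The deposited counts are whole numbers without normalization. Counts of 4 were far more frequent (6818) than counts of 5 (1375) in the ICH samples. A count is therefore not shown to be 1 fragment, totals need not be numbers of sequenced fragments, and the floor was set at 12 counts over a class.

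Genes averaging 0.5 FPKM or more in the 6 ICH samples were fitted with edgeR 4.0.16 in R 4.3.3 (quasi-likelihood, TMM scaling over all 9 samples). CPM values were scaled the same way. The standard error was obtained from the log2 difference and the F value. Classes were set at 300 FPKM of C1qa, that is, by a measured value, so that no p-value was computed for them. A gene was called at a difference of at least 2-fold without overlap of CPM. Laminaria was tested against vehicle with Benjamini-Hochberg adjustment at 0.05. Named genes were the 15 with the largest and the 15 with the smallest difference among called genes averaging 1 FPKM or more, without predicted genes and pseudogenes, and up to 4 members of each list with the largest absolute difference. Other list members were named where the text turns on them, after their values were seen. The classes, the rule and the 42 gene lists were chosen with earlier results of these data known. Promoter windows were RefSeq sequences of GRCm38.p6, searched on both strands.

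The alternatives were DESeq2 1.42.0 size factors and test, limma 3.58.1 on log2 FPKM, other filters, pseudocounts, covariates, a replicate block and leaving out each sample. The scripts were tested on simulated data. The labels do not say that each sample came from its own mouse, so p-values cover the spread between samples only, which can be technical in part. Some members of the lists are not reported here by name.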

Additional observations from a re-analysis of the deposited data

Results flagged for a closer look

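The following values had opposite directions inside the vehicle group (V2 and V3 minus V1) and inside the Laminaria group (La3 minus La1 and La2), with every C1qa-high sample on one side, in mean log2(CPM + 1). These differences between the groups were not tested, and they were picked out of many genes and lists.

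The choroid plexus list differed by -1.07 inside the vehicle group and by 1.2 inside the Laminaria group, a gap of 2.27. Among its members the same was seen for Otx2, a choroid plexus transcription factor (-0.65 and 1.44, gap 2.08), and Folr1, a folate receptor (-0.49 and 1.18, gap 1.67). The mean scores of the list were 2.29, 4.63 and 4.66 in La1, La2 and La3. Its difference inside the Laminaria group thus rested on La1, and La3 barely differed from La2. The heat shock and ER stress list differed by 0.28 and -0.16 (gap -0.44). Per1, a clock gene, differed by 0.04 and -0.66 (gap -0.70), and Tbr1, a factor of cortical neurons, by 0.02 and -0.25 (gap -0.26).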

How the results depend on the processing

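The counts of genes called higher and lower (477 and 82) were 467 and 85 with DESeq2 size factors or with TMM over the 6 ICH samples, the latter chosen after seeing the data. They were 982 and 459 with no filter and 771 and 244 with edgeR's filter, which both test more genes, 166 and 28 on log2(FPKM + 1), and 749 and 210 for the 2 highest against the 2 lowest samples by C1qa. Leaving out each sample gave 456 to 637 higher and 113 to 171 lower. Laminaria against vehicle gave 3 genes with edgeR, 1 with no filter, 1 with edgeR's filter, 48 with DESeq2 and 0 with the C1qa class as a term (677 at an unadjusted p under 0.05), and 0 to 1 without each sample (355 to 1626 unadjusted).

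The following list medians moved by more than the spread or turned sign. On log2(FPKM + 1) they were 1.02 (cell cycle), 0.95 (neutrophils), 0.82 (phagocytic and scavenger receptors), 0.64 (infiltrating monocytes and macrophages), 0.63 (coagulation and fibrinolysis), 0.62 (collagens and matrix), 0.42 (MHC class I), 0.37 (p53 targets and cell death), 0.304 (T, NK and B cell), 0.26 (hypoxia and glycolysis), 0.21 (choroid plexus), 0.16 (pericytes and smooth muscle), -0.44 (thalamus and globus pallidus) and -0.701 (immediate early genes), and on log2(FPKM + 0.1) 2.22 (neutrophils) and 0.44 (choroid plexus). With treatment as a term they were 1.38 (infiltrating monocytes and macrophages) and -0.23 (cortical excitatory neurons), and for the 2 highest against the 2 lowest samples 3.34 (neutrophils), 1.48 (infiltrating monocytes and macrophages), 1.3 (phagocytic and scavenger receptors), 0.13 (T, NK and B cell) and 0.056 (ependyma and motile cilia). Leaving out each sample gave 0.58 to 1.37 (CC and CXC chemokines), -0.61 to 0.79 (choroid plexus), 0.66 to 0.83 (coagulation and fibrinolysis), 0.75 to 0.96 (collagens and matrix), 0.18 to 0.75 (ependyma and motile cilia), -0.37 to -0.23 (GABA neurons and interneurons), -0.0103 to 0.25 (heat shock and ER stress), -0.38 to 1.29 (hemoglobin and erythroid), 0.52 to 0.67 (homeostatic microglia), 0.21 to 0.37 (hypoxia and glycolysis), -1.1 to -0.82 (immediate early genes), 1.01 to 1.94 (infiltrating monocytes and macrophages), 0.45 to 0.73 (MHC class I), 0.77 to 1.4 (MHC class II), 2.02 to 3.15 (neutrophils), 0.41 to 0.66 (p53 targets and cell death), 0.198 to 0.303 (pericytes and smooth muscle), 0.298 to 0.66 (T, NK and B cell), -0.67 to -0.499 (thalamus and globus pallidus). Signs turned for choroid plexus under both FPKM scales and without V1 or V2, for hemoglobin and for heat shock without V2, and for T, NK and B cells under the replicate block. The cause was not tested.

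Samples with the same number had correlations of 0.10, -0.27 and 0.11 between vehicle and Laminaria. Samples with unlike numbers ran from -0.35 (V1 with La3) to 0.36 (V1 with La2). The C1qa classes divide these samples as well, so the correlations cannot decide on pairing. The numbers were not taken as pairs. Only V2 and La2 share a number and differ in class, so with the replicate block the class difference rests on that pair. The block gave 726 higher, 115 lower and 0 genes for Laminaria (551 unadjusted), and list medians of 3.47 (neutrophils), 2.59 (hemoglobin and erythroid), 2.05 (infiltrating monocytes and macrophages), 1.97 (MHC class II), 1.94 (CC and CXC chemokines), 1.82 (cell cycle), 1.79 (interferon-induced), 1.69 (reactive astrocytes), 1.57 (phagocytic and scavenger receptors), 1.55 (interleukin-1 and TNF), 1.42 (NADPH oxidase), 1.29 (complement), 1.2 (pan-myeloid), 1.07 (disease-associated microglia), 1.01 (MHC class I), 0.94 (lysosome), 0.77 (collagens and matrix), 0.41 (cytosolic ribosomal proteins), 0.29 (oligodendrocyte precursors), 0.28 (endothelium and barrier), 0.19 (hypoxia and glycolysis), 0.14 (pericytes and smooth muscle), -0.011 (T, NK and B cell), -0.38 (GABA neurons and interneurons), -0.42 (pan-neuronal) and -1.36 (immediate early genes).

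Of the named gene values 404 moved by less than the spread and 75 by more, and 0 turned sign. Depth limits the genes near 0, such as those of neutrophils. The median over all genes stayed between 0.0008 and 0.027 in every setting.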
